A study of Mus musculus with 32 samples.

Results

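The genes described here are 7 regulators and surface markers of the response of skeletal muscle to loss of its nerve: *Runx1*, *Sox11*, *Ncam1*, *Gadd45a*, *Hdac4*, *Hdac9* and *Dach2*. They were listed by name, with no measured value in the rule but with earlier results of these data known, and all 7 were found by Ensembl ID among the 54838 genes of the deposited count table. The study followed muscle of mice lacking *Mtm1*, the gene of the phosphoinositide phosphatase myotubularin that is mutated in X-linked myotubular myopathy, as the disease develops after birth. RNA was sequenced in 32 libraries, n=4 for each of WT and *Mtm1* KO at 4 ages, P1, P14, P21 and P35. All mice had the C57BL6/J background named in the labels, and the KO groups carried a constitutive deletion in exon 4 of *Mtm1*, with WT littermates as controls. The methods name the tibialis anterior (TA) as the muscle and the ages from P14 on, whereas the labels give skeletal muscle and all 4 ages. The libraries were made from poly(A) RNA of whole muscle with a strand-specific kit, and no further treatment or allele is given for either genotype. Replicates are numbered from 1 to 4 in each group by the labels, which do not say whether same-numbered mice share a litter or a day, so *P*-values measure the spread between these samples.

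In innervated fibers, nerve activity keeps the class IIa histone deacetylase HDAC4 low, and the corepressor DACH2 holds down myogenin. When the nerve is lost, HDAC4 accumulates and represses *Dach2*, myogenin is released, and myogenin activates the acetylcholine receptor subunits and the ubiquitin ligases of atrophy. RUNX1, GADD45A and NCAM1 are well-known members of the same response, and several of these genes are also high in immature muscle before fibers are fully innervated.

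Levels are given as CPM (counts per 1000000 of the library total after TMM scaling, with 1 scale over all 32 libraries), and KO was compared with WT within each age by the edgeR quasi-likelihood test with Benjamini-Hochberg adjustment. DEGs had to pass an adjusted *P*-value of 0.01 and to differ by more than 1.5-fold in either direction. Library totals were 49321035 to 85631408 counts, and *Mtm1* was below WT in every KO library at every age. Which part of the transcript gave the *Mtm1* counts in KO was not examined. At P1 the *Mtm1* log2 fold change of -0.98 ± 0.17 did not pass adjustment (adjusted *P*=0.067, edgeR). The level of *Mtm1* was 18.9 to 24.9 CPM in WT and 2.64 to 4.51 CPM in KO from P14 to P35, against 5.26 to 6.02 CPM in WT and 2.32 to 3.91 CPM in KO at P1. The highest *Mtm1* value of the KO libraries at P1 belonged to replicate 4, the KO library at P1 that also had the lowest *Ncam1* and *Myog*, and leaving it out added no call among the 7 at P1. In whole muscle, fewer cells of a type and less RNA per cell cannot be told apart.

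In the edgeR fits without pairing, none of the 7 genes was called at P1 or P14 and most were from P21. At P14, however, edgeR called *Runx1* and *Sox11* once same-numbered libraries were paired, and DESeq2 called *Runx1* without pairing. At P1, 0 of the 7 genes were DEGs, with 0.0442% of all genes tested called, and 1 of the 7 (*Hdac9*) had an unadjusted *P*-value under 0.05. The libraries of the genotypes overlapped for all 7 genes at P1, at an age when 8.73% of all genes did not overlap. At P14, 0 of the 7 were DEGs against a background of 0.0318%, although 4 had an unadjusted *P*-value under 0.05. The KO libraries lay above all WT libraries for 2 of the 7, *Runx1* and *Sox11*, where 4.82% of all genes did not overlap. At P21, 6 of the 7 were DEGs, 5 higher and 1 lower in KO, against 4.67% of all genes tested. The genotypes did not overlap for the same 6 genes, where 25.4% of all genes did not overlap. At P35, 5 of the 7 were DEGs, 4 higher and 1 lower, against 16% of all genes tested. The libraries of the genotypes did not overlap for any of the 7 at P35, where 39.6% of all genes did not overlap.

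**Figure D1:**
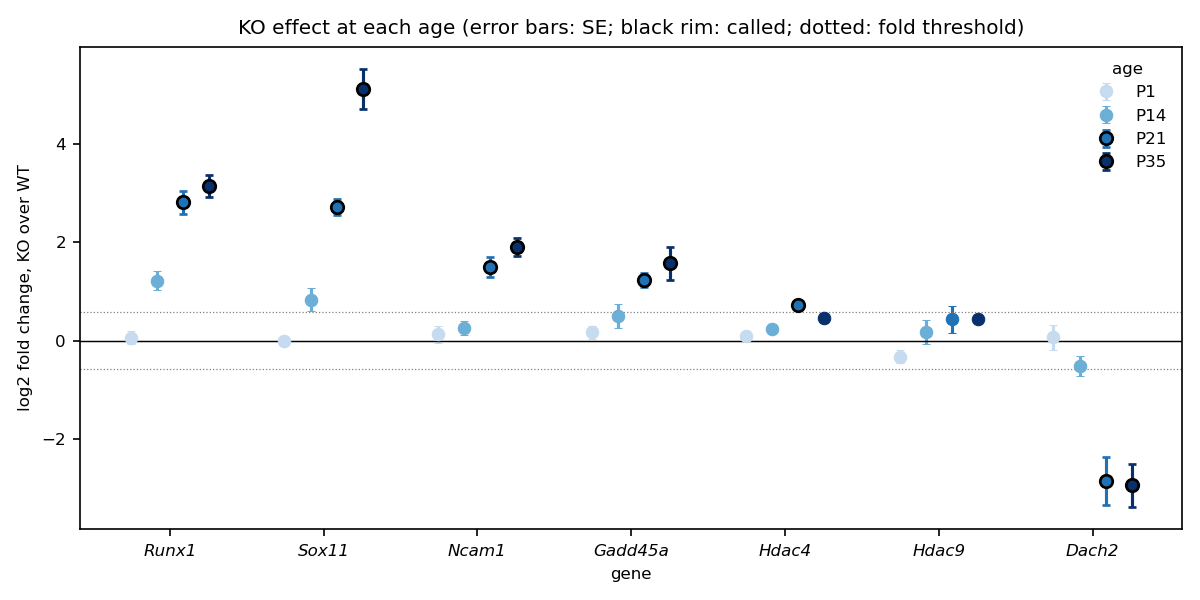
Log2 fold change of KO over WT for each of the 7 genes at P1, P14, P21 and P35, from the fit within each age (n=4 per genotype, error bars are SE, a black rim marks a DEG, dotted lines are the fold threshold of 1.5 on the log2 scale). *Runx1* goes from 1.22 at P14 to 2.81 at P21 and 3.15 at P35, *Sox11* from 0.83 to 2.71 and 5.12, *Hdac4* and *Hdac9* stay under 1, and *Dach2* is at -2.85 at P21 and -2.95 at P35.

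*Runx1* (16:92601466-92826149, minus strand, GRCm38) encodes a Runt-domain transcription factor that is induced in denervated fibers, where it limits wasting. Its levels at P1 were 11.3, 8.15, 7.75, 9.88 CPM across WT replicates and 10.8, 9.50, 8.48, 9.33 CPM across KO replicates, and the genotypes overlapped. At P14 WT replicates 1 to 4 gave 4.597, 4.88, 4.46, 2.76 CPM, compared with 10.1, 8.70, 12.0, 8.32 CPM for KO. On the TMM scale the KO mean at P14 was 1.05-fold the newborn WT mean, while every WT library at P14 was below the newborn libraries. Scaled by library totals it was 0.651-fold, and the log2 fold change in KO from P1 to P14 was -0.70 (adjusted *P*=0.00603, edgeR) and called. The log2 fold change at P14 was 1.22 ± 0.19 (SE), which did not pass adjustment (adjusted *P*=0.0822). At P21 the levels were 2.09, 3.79, 2.61, 3.72 CPM for WT replicates 1 to 4 against 28.7, 22.7, 18.1, 15.9 CPM for KO. The lowest KO library was far above the highest WT library (log2 fold change 2.81 ± 0.24, adjusted *P*=0.000174, edgeR). P35 gave 2.68, 3.77, 2.37, 3.67 CPM across WT replicates and 18.3, 26.9, 34.9, 29.2 CPM across KO replicates, with a log2 fold change of 3.15 ± 0.22 (adjusted *P*=4.27e-05, edgeR). *Runx1* was called without any 1 of the 8 libraries at P21 and at P35.

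At P14 same-numbered WT and KO libraries deviated together from their group means, with correlations of 0.299 to 0.735. Differently numbered libraries had correlations of -0.636 to 0.566, so the ranges overlapped. WT replicate 2 was closer to KO replicate 1 (0.566) than to KO replicate 2 (0.473). In the fit with the replicate number as a block, 0.623% of all genes were called at P14, and 2 of the 7 were among them. *Runx1* then had a log2 fold change of 1.22 ± 0.11 (adjusted *P*=0.000396, edgeR with the replicate block) and *Sox11* one of 0.86 ± 0.14 (adjusted *P*=0.00758). DESeq2 without the block also called *Runx1* at P14 (log2 fold change 1.22, adjusted *P*=1.00e-06). The other 5 genes were not called at P14 in any of these fits.

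*Sox11* (12:27334264-27342574, minus strand) encodes a SoxC transcription factor that is active in embryonic tissues and neurons. It started at about the same level in both genotypes at P1, with 8.72, 10.7, 10.2, 11.2 CPM for WT replicates 1 to 4 against 10.2, 10.02, 10.6, 9.60 CPM for KO. By P14 WT replicates read 5.25, 5.75, 3.59, 2.65 CPM, and KO replicates 8.36, 7.61, 9.02, 5.89 CPM. The P14 groups did not overlap, but the highest WT and the lowest KO library were close together (log2 fold change 0.83 ± 0.24, adjusted *P*=0.508). Levels at P21 were 1.45, 1.38, 1.14, 1.07 CPM across WT replicates and 9.56, 9.18, 6.59, 7.52 CPM across KO replicates. The KO mean was 6.52-fold the WT mean (log2 fold change 2.71 ± 0.16, adjusted *P*=3.11e-05, edgeR). It was 0.805-fold the newborn WT mean on the TMM scale and 0.478-fold by library totals. At P35 the WT libraries had 0.292, 0.468, 0.760 and 0.600 CPM, from 12 to 32 counts a library, and the KO libraries 11.4, 10.9, 27.2 and 23.5 CPM. The fold was the largest of the 7, 34.4-fold between the group means with a log2 fold change of 5.12 ± 0.41 (adjusted *P*=6.34e-05, edgeR). KO replicates 3 and 4 were high at P35, and without either of these the call remained.

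*Dach2* (X:113297510-113836386, plus strand) encodes the corepressor that keeps myogenin low in innervated fibers, and was the 1 gene of the 7 that was called lower in KO than in WT. It was scarce at P1, with 0.343 to 0.692 CPM in WT and 0.436 to 0.686 CPM in KO. At P14 the levels were 0.655, 0.710, 0.737, 0.961 CPM for WT replicates 1 to 4 against 0.475, 0.425, 0.535, 0.713 CPM for KO, and the groups overlapped. At P21 WT replicates 1 to 4 gave 4.54, 2.36, 3.07, 0.811 CPM, compared with 0.498, 0.208, 0.369, 0.400 CPM for KO. WT had gained *Dach2* with a wide spread and KO had not, and even the lowest WT library was above the KO libraries. The log2 fold change was -2.85 ± 0.49 (adjusted *P*=0.00416, edgeR). This call was near its threshold: without any 1 library other than WT replicate 4 the adjusted *P*-value was 0.0102 to 0.0154 (edgeR). At P35 the levels were 1.66, 2.27, 4.77, 1.45 CPM across WT replicates and 0.200, 0.443, 0.398, 0.232 CPM across KO replicates, the log2 fold change being -2.95 ± 0.44 (adjusted *P*=0.000873, edgeR). The P35 call held without any 1 library. The KO values rest on 10 to 30 counts a library at these 2 ages.

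The promoters of the 3 genes that differed most are shown for reference, as listed by RefSeq on GRCm38.p6, each from 250 bases before to 50 bases after a transcription start and written 5′ to 3′ on the strand of the gene. *Runx1* and *Dach2* each have 2 starts in that table, and the counts per gene do not say which start was used. Of the 7 genes 6 were matched, *Ncam1* being the exception. Capitals mark the E-box CAGCTG, a form bound by myogenin, the RUNX motif TGTGGT and the SOX motif ACAAAG, each searched on both strands.
Runx1, distal start, chr16:92826025-92826324, minus strand: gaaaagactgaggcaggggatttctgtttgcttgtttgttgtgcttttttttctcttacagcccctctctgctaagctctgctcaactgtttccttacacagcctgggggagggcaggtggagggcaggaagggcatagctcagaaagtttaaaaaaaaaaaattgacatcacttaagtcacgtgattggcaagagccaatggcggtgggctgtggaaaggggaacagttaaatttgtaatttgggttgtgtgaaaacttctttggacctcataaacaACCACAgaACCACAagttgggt
Runx1, proximal start, chr16:92697280-92697579, minus strand: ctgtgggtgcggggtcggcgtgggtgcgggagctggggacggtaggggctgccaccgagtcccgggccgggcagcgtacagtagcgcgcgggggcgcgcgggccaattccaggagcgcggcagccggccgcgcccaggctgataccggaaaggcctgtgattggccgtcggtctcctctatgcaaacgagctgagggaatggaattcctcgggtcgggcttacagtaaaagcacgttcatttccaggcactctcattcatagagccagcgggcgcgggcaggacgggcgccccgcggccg
Sox11, chr12:27342669-27342968, minus strand: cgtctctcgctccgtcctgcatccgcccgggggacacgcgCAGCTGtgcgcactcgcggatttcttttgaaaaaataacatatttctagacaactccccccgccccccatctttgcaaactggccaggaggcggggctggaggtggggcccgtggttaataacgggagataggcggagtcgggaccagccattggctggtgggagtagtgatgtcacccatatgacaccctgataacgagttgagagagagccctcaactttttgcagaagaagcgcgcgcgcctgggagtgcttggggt
Dach2, upstream start, chrX:113297260-113297559, plus strand: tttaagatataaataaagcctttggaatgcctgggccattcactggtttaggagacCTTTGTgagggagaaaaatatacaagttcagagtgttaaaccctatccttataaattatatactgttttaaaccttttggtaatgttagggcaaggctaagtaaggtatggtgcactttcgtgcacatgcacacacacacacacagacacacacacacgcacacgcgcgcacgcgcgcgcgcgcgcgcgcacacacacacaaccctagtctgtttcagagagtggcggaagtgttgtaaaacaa
Dach2, downstream start, chrX:113298006-113298305, plus strand: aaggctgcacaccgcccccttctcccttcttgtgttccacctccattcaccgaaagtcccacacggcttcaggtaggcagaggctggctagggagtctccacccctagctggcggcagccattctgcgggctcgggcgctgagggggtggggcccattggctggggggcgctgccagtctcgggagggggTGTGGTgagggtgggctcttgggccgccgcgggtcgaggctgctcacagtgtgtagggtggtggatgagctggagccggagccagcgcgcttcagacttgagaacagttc
The distal *Runx1* window held the RUNX motif at 2 places just after the start, both on the strand opposite to the gene, and the downstream *Dach2* window held it at 1 place. The *Sox11* window held 1 CAGCTG, and the upstream *Dach2* window 1 SOX motif. Such matches are common, since of 32851 windows of this length 16.3% held CAGCTG, 16.8% the RUNX motif and 18.7% the SOX motif. A match is a description of the letters and was not tested for binding.

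**Figure D2:**
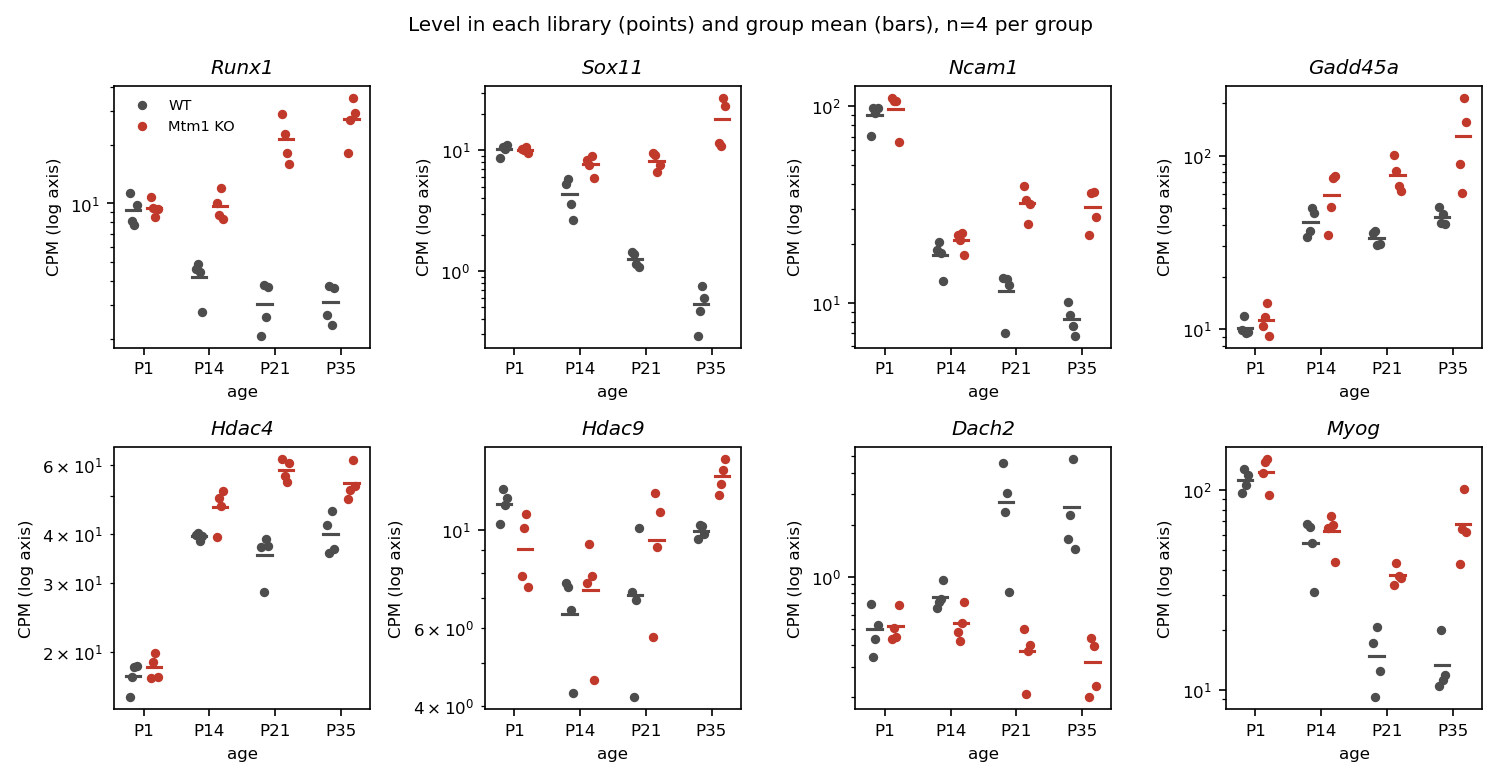
CPM (log axis, scaled to each panel) of the 7 genes and *Myog* in each of the 32 libraries by age, with WT in grey, *Mtm1* KO in red, and bars at group means (n=4). The genotypes do not overlap from P14 on for *Runx1* and *Sox11*, from P21 on for *Ncam1*, *Gadd45a*, *Hdac4*, *Dach2* and *Myog*, and at P35 for *Hdac9*. *Dach2* is the only panel where KO lies below WT without overlap.

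*Ncam1* (9:49502136-49798925, minus strand) encodes the neural cell adhesion molecule, which covers the surface of embryonic and denervated fibers and withdraws to the synapse once a fiber is innervated. At P21 WT replicates read 13.4, 7.03, 13.1, 12.3 CPM, and KO replicates 39.1, 33.1, 25.0, 31.6 CPM. All 4 KO libraries were higher, with a log2 fold change of 1.499 ± 0.20 (adjusted *P*=0.00156, edgeR). At P35 the levels were 10.1, 8.64, 7.60, 6.80 CPM for WT replicates 1 to 4 against 22.2, 36.2, 36.7, 27.4 CPM for KO, a log2 fold change of 1.91 ± 0.19 (adjusted *P*=0.000136, edgeR). The KO levels were still well under those of newborn muscle, which had 89.6 ± 13.0 CPM (SD, n=4) in WT. At P1 and P14 the groups overlapped, with log2 fold changes of 0.13 ± 0.17 and 0.25 ± 0.14.

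*Gadd45a* (6:67035096-67037457, minus strand) encodes a small nuclear stress protein that is induced in denervated and fasted muscle. At P21 WT replicates 1 to 4 gave 35.8, 36.9, 30.4, 30.9 CPM, compared with 101, 81.3, 66.6, 62.2 CPM for KO, with a log2 fold change of 1.23 ± 0.14 (adjusted *P*=0.00082, edgeR). At P35 they had 50.5, 40.7, 46.1, 40.5 CPM across WT replicates and 89.6, 60.6, 215, 156 CPM across KO replicates. KO replicates 3 and 4 stood high, as they did for *Sox11*, and the mean of 130.2 ± 69.2 CPM (SD, n=4) in KO had the widest spread of the groups. The log2 fold change was 1.57 ± 0.33 (adjusted *P*=0.00496, edgeR), and this was called without KO replicate 1 or 2 but not without any of the other 6 libraries (adjusted *P*=0.0105 to 0.0168). An annotated gene on the opposite strand, *E230016M11Rik*, overlaps *Gadd45a*, and its counts reached 29.1% of those of *Gadd45a* in the library where the share was highest. That gene had 1.85 CPM in WT at P1, and 0.686 CPM in WT and 0.99 CPM in KO at P35, and whether counting used the strand is not given in the sources used here.

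*Hdac4* (1:91928779-92195699, minus strand) and *Hdac9* (12:34047580-34917095, minus strand) encode class IIa deacetylases, which have little enzyme activity of their own and repress MEF2 targets. HDAC4 is known to rise after denervation and HDAC9 to fall. *Hdac4* had 37.2, 28.5, 38.9, 37.2 CPM for WT replicates 1 to 4 against 62.1, 56.2, 54.3, 61.0 CPM for KO at P21, a log2 fold change of 0.73 ± 0.10 (adjusted *P*=0.00156, edgeR). At P35 it had 42.1, 35.8, 46.0, 36.7 CPM across WT replicates and 49.2, 52.0, 61.9, 53.2 CPM across KO replicates. The groups were apart at both ages, but the P35 log2 fold change of 0.45 ± 0.10 was under the fold threshold (adjusted *P*=0.00716, edgeR). For *Hdac9* the KO and WT libraries overlapped at P21, where WT replicates read 7.25, 4.18, 6.96, 10.1 CPM, and KO replicates 5.73, 12.1, 9.17, 10.98 CPM (log2 fold change 0.43 ± 0.28, adjusted *P*=0.305). At P35 it had 9.56, 10.3, 10.2, 9.80 CPM for WT replicates 1 to 4 against 12.0, 12.7, 13.7, 14.5 CPM for KO. All 4 KO libraries were higher at P35, with a log2 fold change of 0.43 ± 0.08 that passed adjustment but not the fold threshold (adjusted *P*=0.00325, edgeR). Scaled by library totals in place of TMM, which moved the median over all genes to 0.44 at P35 and to 0.20 at P21, both were called at P35 (0.86 for *Hdac4* and 0.83 for *Hdac9*). Under that scaling, 4350 genes were called higher and 326 lower at P35, against 1324 and 1172 with TMM, and 1052 and 105 at P21, against 482 and 227.

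The question of when the genotypes part was tested as a difference of the KO effect between successive ages, in 1 fit of all 32 libraries. Between P1 and P14, 0 of the 7 passed (0.0161% of all genes did), and 2, *Runx1* and *Sox11*, had an unadjusted *P*-value under 0.05. Between P14 and P21, 2 of the 7 passed, against 0.425% of all genes: the KO effect on *Runx1* grew by 1.58 ± 0.31 on the log2 scale (adjusted *P*=0.00627, edgeR) and that on *Sox11* by 1.87 ± 0.37 (adjusted *P*=0.00653). *Ncam1* (1.24 ± 0.28, adjusted *P*=0.019) and *Dach2* (-2.35 ± 0.58, adjusted *P*=0.0309) missed the threshold, although *Ncam1* passed with library totals (1.36, adjusted *P*=0.00944, edgeR). The 2 calls were close to it, since leaving out 1 of the 16 libraries of these ages left *Runx1* called in 6 of 16 fits and *Sox11* in 4 of 16, with adjusted *P*-values of up to 0.0217 and 0.0203. With the replicate block, *Sox11* had an adjusted *P* of 0.000286 and *Runx1* one of 0.0135 (edgeR). Between P21 and P35, 1 of the 7 passed, against 0.463% of all genes: the KO effect on *Sox11* grew by a further 2.39 ± 0.41 (adjusted *P*=0.00187, edgeR). This held without any 1 of 16 libraries, but with only the 16 libraries of the 2 ages in the fit the difference of 2.41 had an adjusted *P* of 0.0195.

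More of the 7 were called in WT from P1 to P14 than over either later step. From P1 to P14 in WT, 6 of the 7 were called, against 53.5% of all genes: *Ncam1* (log2 fold change -2.36 ± 0.20), *Sox11* (-1.24 ± 0.24), *Runx1* (-1.15 ± 0.21) and *Hdac9* (-0.82 ± 0.22) fell, and *Gadd45a* (2.03 ± 0.27) and *Hdac4* (1.19 ± 0.10) rose. In KO, 3 of the 7 were called over the same step, against 53.7% of all genes: *Ncam1* (-2.22 ± 0.20) fell, and *Gadd45a* (2.38 ± 0.27) and *Hdac4* (1.36 ± 0.10) rose. *Runx1* had a log2 fold change of 0.04 ± 0.21 and *Sox11* one of -0.39 ± 0.24 in KO over this step. Most genes tested were called over this step in either genotype. Scaling by library totals lowered all log2 fold changes of this step by about the same amount (-0.784 in WT and -0.743 in KO), and then 6 of the 7 were called in KO, *Runx1* (-0.70) and *Sox11* (-1.12) among them, and *Hdac4* in WT was 0.41 and not called.

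After P14 fewer of the 7 were called. From P14 to P21 in WT, 2 of the 7 were called, against 6.83% of all genes: *Sox11* fell by 1.78 on the log2 scale (adjusted *P*=2.86e-05, edgeR) and *Dach2* rose by 1.82 ± 0.38 (adjusted *P*=0.00096). In KO, 1 was called, against 9.16%: *Runx1* rose by 1.13 ± 0.21 (adjusted *P*=0.000252). *Ncam1* had a log2 fold change of -0.61 ± 0.20 in WT and 0.63 ± 0.20 in KO, and neither passed in the main fit (adjusted *P*=0.0263 and 0.0159, edgeR). The WT fall of *Ncam1* was called with library totals (-0.79, adjusted *P*=0.0062, edgeR). Its KO rise was called by DESeq2 (0.63, adjusted *P*=0.00874). From P21 to P35, 1 of the 7 was called in WT, against 4% of all genes, and 1 in KO, against 6.34%, and both were *Sox11*. It fell by 1.24 on the log2 scale in WT (adjusted *P*=0.0096) and rose by 1.15 ± 0.24 in KO (adjusted *P*=0.000849). The WT fall passed in 1 of 8 fits that each left out 1 library, the one without WT P35 replicate 3 (adjusted *P* of up to 0.0438). With only the libraries of the 2 groups in the fit, neither step passed (adjusted *P*=0.0166 in WT and 0.0224 in KO, edgeR).

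**Figure D3:**
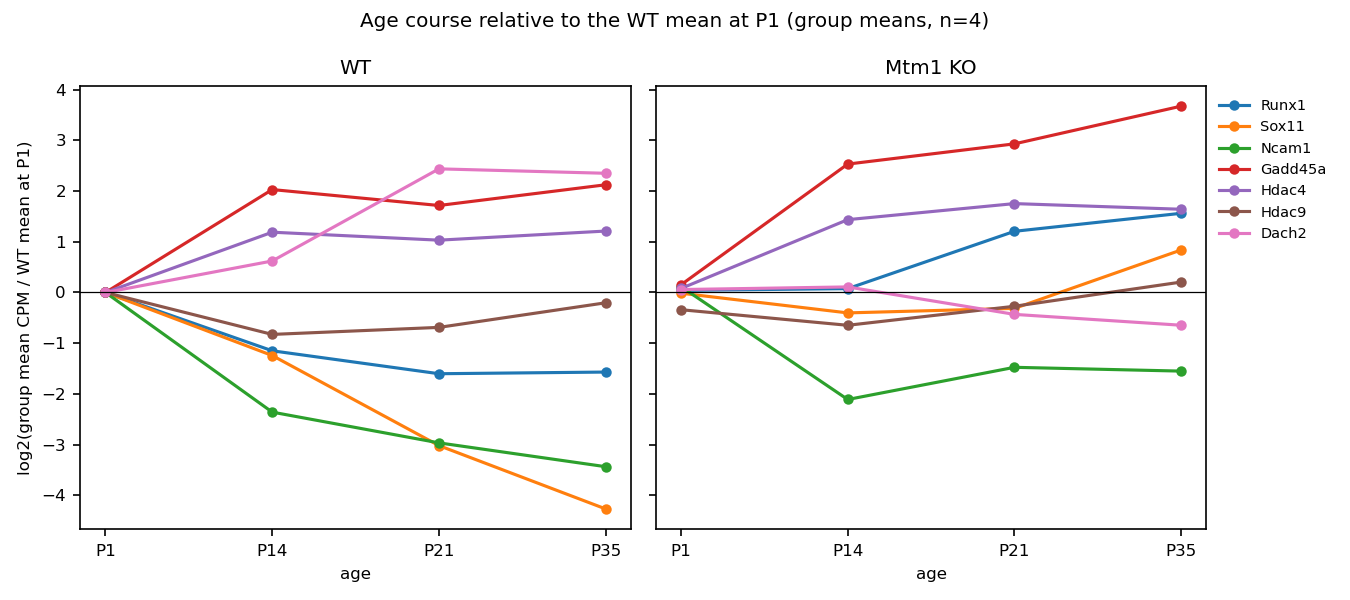
Group mean CPM, on the TMM scale, of each gene relative to the WT mean at P1 (log2 ratio, n=4 per group), in WT on the left and *Mtm1* KO on the right, with 1 line per gene. At P35, *Runx1* stands at 0.337 of its newborn WT level in WT and 2.95-fold in KO, and *Dach2* at 5.10-fold in WT and 0.639 in KO (0.165, 1.95, 2.51 and 0.424 by library totals).

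Set against the newborn WT mean on the TMM scale, the KO levels at P35 were 2.95-fold for *Runx1*, 1.79-fold for *Sox11* and 0.342-fold for *Ncam1*, and the WT levels were 0.337-fold, 0.0519-fold and 0.0925-fold. By library totals the KO levels were 1.95-fold, 1.18-fold and 0.227-fold, and the 2 scalings differed by over 1.5 times for each of the 3. Per kilobase of exon, on which scale genes can be compared, *Ncam1* led the 7 at P1 in WT with 10.3 ± 1.5 CPM per kb (SD, n=4), followed by *Gadd45a* at 5.79 ± 0.645. *Sox11* (1.23) and *Hdac4* (1.1) overlapped next in that order, as did *Hdac9* (0.782) and *Runx1* (0.77), and *Dach2* was last at 0.0504 CPM per kb. At P35 in WT the order was *Gadd45a* (25.2), *Hdac4* (2.54), *Ncam1* (0.957), *Hdac9* (0.679), *Runx1* (0.26), *Dach2* (0.257) and *Sox11* (0.0638 CPM per kb), in which *Runx1* and *Dach2* overlapped. At P35 in KO it was *Gadd45a* (73.8), *Ncam1* (3.53), *Hdac4* (3.42), *Runx1* (2.27), *Sox11* (2.19), *Hdac9* (0.901) and *Dach2* (0.0322 CPM per kb). In that order the libraries of *Ncam1*, *Runx1* and *Sox11* overlapped one another, and those of *Hdac4* overlapped *Ncam1* and *Sox11*. By group mean at P35, *Sox11* was the last of the 7 in WT and the fifth in KO, and *Dach2* was the sixth in WT and the last in KO.

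Among the known targets of these regulators, myogenin was higher in KO from P21. *Myog*, the muscle transcription factor that DACH2 restrains, had 17.2, 9.22, 20.6, 12.4 CPM across WT replicates and 33.6, 43.3, 37.4, 36.3 CPM across KO replicates at P21 (log2 fold change 1.35 ± 0.22, adjusted *P*=0.00349, edgeR), and 10.5, 20.1, 11.2, 11.9 CPM for WT replicates 1 to 4 against 42.6, 64.4, 101, 61.8 CPM for KO at P35 (2.35 ± 0.29, adjusted *P*=0.000323). *Chrng*, the fetal acetylcholine receptor subunit, had 0.414 ± 0.0908 CPM in WT and 2.35 ± 1.26 CPM in KO at P35 (SD, n=4), a log2 fold change of 2.52 ± 0.38 (adjusted *P*=0.000838, edgeR), and one of 1.36 ± 0.44 at P21 that did not pass (adjusted *P*=0.0568). Neither was called at P1 or P14, where the log2 fold changes were between -0.03 and 0.33. The list of the myogenin axis held 16 genes: muscle transcription factors, receptor subunits, atrophy ligases, *Musk* and *Gdf5*. Of the 16, 6 were higher and 0 lower at P21, with a median log2 fold change of 0.83. At P35 10 were higher and 0 lower, with a median of 0.86. These are 37.5% and 62.5% of the list, against 4.67% and 16% of all genes. The median over all genes was 0.01 at P21 and 0.04 at P35. Of this list, DESeq2 also called *Myf5* lower in KO at P21 (-0.69). It further called *Myod1* (1.015), *Chrna1* (1.36) and *Gdf5* (2.84) higher at that age. *Trim63*, the ubiquitin ligase MuRF1, had the smallest adjusted *P*-value of the list at both ages, with log2 fold changes of 1.36 ± 0.11 and 1.28 ± 0.13. *Mef2c*, a transcription factor repressed by class IIa deacetylases, was higher by 0.62 ± 0.07 at P21, and the receptor subunit *Chrnb1* by 0.80 ± 0.10 at P35.

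Of 7 denervation markers, 1 was higher and 0 lower at P21 (median log2 fold change 0.56), and 4 were higher and 1 lower at P35 (median 1.42), which is 14.3% and 71.4% of the list called, against 4.67% and 16% of all genes. *Kcnn3*, an SK potassium channel of denervated and developing fibers, was higher at P21 (1.27 ± 0.15) and P35 (1.42 ± 0.16), and *Myh3*, embryonic myosin, was higher at P35 (4.16 ± 0.34). *Scn4a*, the sodium channel of mature innervated muscle, was lower at P35 (-0.86 ± 0.11). Of the 15 kinases and corepressors that act on class IIa deacetylases, 14 passed the filter on low counts at these ages, and 2 of the 14 were called at P21 and 7 at P35. *Camk2d*, a calcium-dependent kinase, was higher at P21 (0.89 ± 0.12) and *Sik2*, a salt-inducible kinase, lower (-0.70 ± 0.15), and at P35 2 were higher and 5 lower, with *Camk2d* (1.00 ± 0.13) and *Sik1* (1.94 ± 0.28) among the former and *Camk2g* (-0.70 ± 0.10) among the latter. The medians of this list were -0.14 at P21 and -0.25 at P35.

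Of 10 close paralogues, 8 passed the filter at P21 and 0 were called, whereas 9 passed at P35 and 2 were called, both lower in KO: *Gadd45b* (-1.49 ± 0.20) and *Dach1* (-1.10 ± 0.16). The P35 share was 22.2%, against 16% of all genes. DESeq2 also called *Runx2* (1.56), *Runx3* (1.62) and *Sox4* (0.72) higher in KO at P35, and *Gadd45b* lower at P21 (-1.13). With the replicate block at P35, *Sox4* was called higher (0.79) and *Gadd45g* lower (-0.69). *Gadd45b* had 33.0 ± 7.7 CPM in WT and 11.5 ± 2.56 CPM in KO at P35 (SD, n=4), the opposite direction to *Gadd45a*. Of 13 partners and modifiers, 1 was higher and 1 lower at P21 and 3 were higher and 0 lower at P35 (15.4% and 23.1% called). *Cdkn1a*, the cell cycle inhibitor p21 that binds GADD45A, was higher by 3.38 ± 0.19 at P21 and 3.83 ± 0.36 at P35. Of the enzymes that put polysialic acid on NCAM1, *St8sia4* was called lower at P21 (-0.77 ± 0.13) but was not called at P35. *St8sia2* was called higher at P35 (1.67 ± 0.23) but was not called at P21. DESeq2 called both at both ages, with *St8sia2* at 0.75 at P21 and *St8sia4* at -1.04 at P35. *Runx1t1*, a corepressor that fuses to RUNX1 in leukemia, was higher at P35 (0.80 ± 0.16). Over all 5 lists, 11 of 58 genes tested were called at P21 (19.0%, against 4.67% of all genes) and 27 of 59 at P35 (45.8%, against 16%), and the P21 count was 4 without KO replicate 2 and 6 without KO replicate 4. At P1 and P14, 0 of the 61 listed genes were called. With the replicate block at P14, 4 were: *Gdf5*, *Cdkn1a*, *Myh8* and *Myh3*, all higher in KO with log2 fold changes of 2.37, 1.09, 1.05 and 1.00. The 4 were named after their values had been seen.

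**Figure D4:**
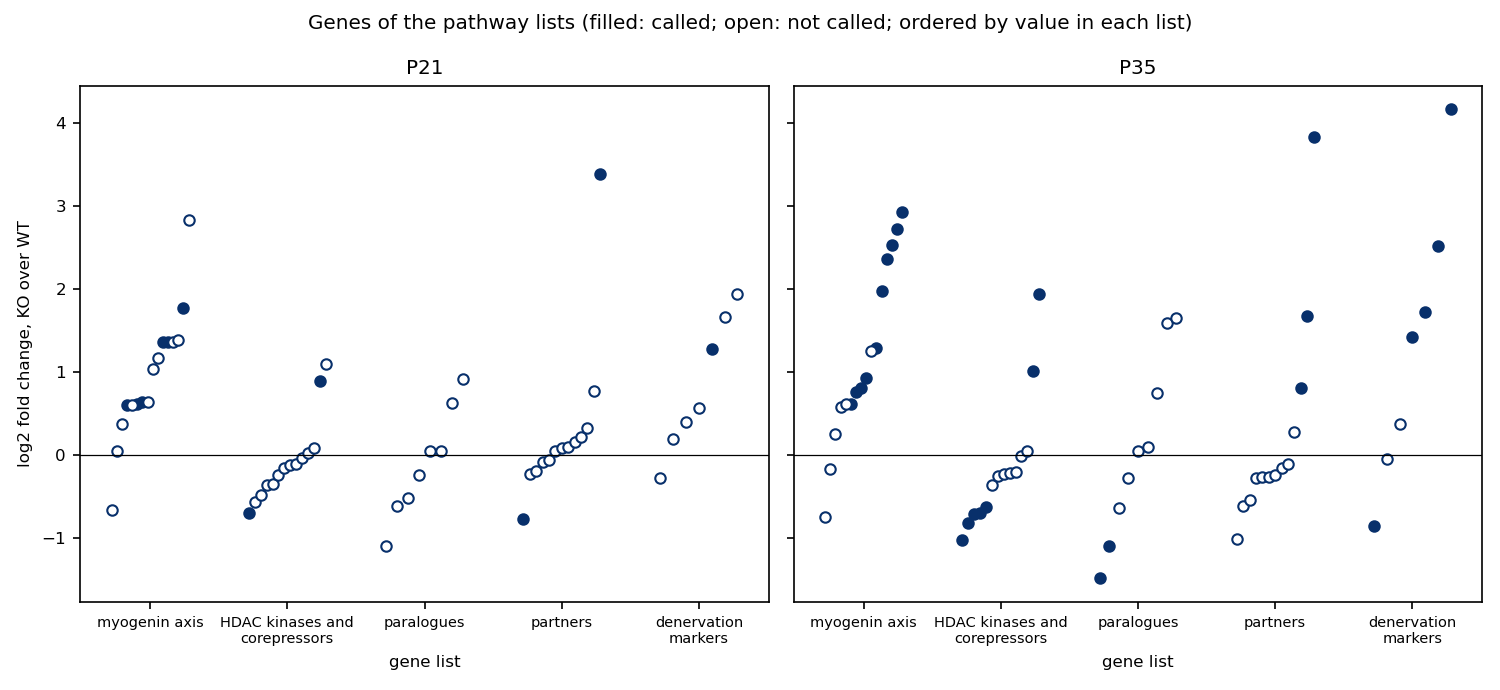
Log2 fold change of KO over WT at P21 (left) and P35 (right) for each gene of the 5 lists of pathway genes that passed the filter on low counts (n=4 per genotype, filled points are DEGs, open points are not, ordered by value within each list). The myogenin axis lies mostly above 0 at both ages, with medians of 0.83 and 0.86, whereas the kinases and corepressors lie on both sides, with medians of -0.14 and -0.25.

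The genes whose pattern across the 32 libraries was most like that of each of the 7 were named by Pearson's *r* of log2 CPM, after the WT mean of the same age was taken off. For *Runx1* they were *Hsf2bp* (0.982), *Timp1* (0.982) and *Cpne2* (0.981), and for *Sox11* *Slc25a24* (0.978), *Lgmn* (0.975) and *Cyb5r3* (0.974). *Ncam1* was nearest to *Ttc9* (0.954), *Mymx* (0.952) and *Sln* (0.948), and *Gadd45a* to *Edf1* (0.917), *Hras* (0.917) and *Mfsd7a* (0.915). For *Hdac4* they were *Rb1* (0.897), *Kcnq5* (0.885) and *Eda2r* (0.876), for *Hdac9* *Itgb6* (0.845), *Fam20c* (0.822) and *Trim13* (0.82), and for *Dach2* *Adk* (0.932), *Aldh5a1* (0.931) and *Plbd1* (0.923). Among the 7 themselves, *Runx1* and *Sox11* were the most alike (0.928), *Dach2* ran against all others (-0.904 with *Runx1* to -0.633 with *Hdac9*), and *Hdac9* was the least tied to *Gadd45a* (0.358). These values describe 32 libraries that share genotype, age and depth, and carry no test.

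Markers of other cell types moved beside these changes. Muscle fiber markers summed to 15940 to 33200 CPM in the libraries at P1 and to 90360 to 218800 CPM from P14, and keratinocyte markers to 1792 to 6551 CPM at P1 and 6.79 to 35.4 CPM later, so that the make-up of the samples moved with the step from P1 to P14 and with every comparison with newborn muscle. Fiber markers were below WT in every KO library at P21 (151900 to 168100 CPM against 168800 to 218800 CPM) and at P35 (90360 to 120900 CPM against 140000 to 203500 CPM), although 0 and 1 (*Acta1*) of the 8 were called. Macrophages also express *Runx1*, and of 6 macrophage markers 2 were called higher in KO at P21 and 4 at P35 (4.67% and 16% of all genes were called at these ages), with a summed level of 38.7 to 47.6 CPM in WT and 57.2 to 84.9 CPM in KO at P35. Schwann cells also express *Ncam1*, and of 8 of their markers 0 were called at P21 and 1 (*Ngfr*) at P35. The median log2 fold change of these markers was 0.11 at P21 and 1.42 at P35. Their sums at P35 were 91.4 to 558 CPM in WT (median 200.6) and 302 to 1197 CPM in KO (median 647.5), and overlapped. Of 6 satellite cell markers, 0 were higher and 2 (*Calcr* and *Pax7*) lower at P21, with a median log2 fold change of -0.79. At P35, 1 was higher and 2 lower, with a median of -0.62, and the called genes were *Sdc4*, *Calcr* and *Pax7*. The satellite cell sums at P35 were 62.8 to 74.8 CPM in WT and 69.5 to 88.1 CPM in KO, and overlapped. Of 8 keratinocyte markers 2 passed the filter at P21 and P35 and 1 (*Trp63*) was higher at both ages. The keratinocyte sums were 6.79 to 10.05 CPM in WT and 28.7 to 35.4 CPM in KO at P21. At P35 they were 9.09 to 10.2 CPM in WT and 24.7 to 29.9 CPM in KO. Fibroblast and erythroid markers had 0 calls at any age, and of 5 endothelial markers 2 were lower at P35. No defining marker of these lists other than those of keratinocytes was at 3 counts or fewer in all 8 libraries of an age. The part of these cell types in the levels of the 7 genes was not tested.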

How the data were processed

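RNA of mouse TA muscle was measured in 32 libraries, n=4 WT and n=4 *Mtm1* KO at P1, P14, P21 and P35, grouped by the labels. The authors deposited expected counts for each gene in each library as 1 table, not scaled between libraries and with replicates unpooled. The submitters' processing notes name STAR 2.6.1, RSEM 1.2.22, DESeq2 and GRCm38, whereas the methods of the study name HTSeq as the counter. The annotation release and the use of strand are not given in the sources used here. Of 54838 genes, 54723 were given a symbol from GENCODE M21, which also gave coordinates and exon lengths. There were 0 columns left unused.

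Expected counts (4.26% not whole) were rounded and fitted with edgeR 4.0.16 under R 4.3.3, using filterByExpr, TMM, glmQLFit and glmQLFTest, two-sided, Benjamini-Hochberg over all genes tested. Calls required an adjusted *P*-value below 0.01 with a change of more than 1.5-fold, and differences of the KO effect an adjusted *P*-value under 0.01 alone. KO was compared with WT in the 8 libraries of each age. Age steps and differences came from 1 fit of 32 libraries. CPM use the TMM factors of that fit, so ratios of mean CPM can differ from the fold changes within an age. The steps were tested on simulated data. Total counts per library were 49321035 to 85631408, 22379 genes were at 0 in every library, and no 2 replicates agreed within sampling noise.

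Pairing was checked by the correlation of deviations from group means between same-numbered libraries. At P14 all 4 pairs were over 0.1 (0.299 to 0.735), so the blocked fit is given there. Differently numbered libraries at P14 ranged from -0.636 to 0.566. At the other ages the lowest pair was -0.331 (P1), -0.0578 (P21) and -0.0994 (P35).

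The members and gene lists were chosen with earlier results of these data known. The genes named are the 7 at all ages, *Mtm1*, *Myog* and *Chrng*, the 3 called genes of each pathway list with the smallest adjusted *P*-value at P21 and at P35, and the 3 genes most like each of the 7. Pathway genes called only in alternative fits were named after their values had been seen. A further gene of the rule and the lists is not reported here and is left out of their counts. Promoters came from RefSeq. Alternatives were DESeq2 1.42.0, RLE scaling, library totals, no filter, at least 10 counts in every library, other sets of libraries in the fit, the replicate block, an adjusted *P*-value under 0.05 with no fold threshold, and leaving out each library. Tables and figures were made with python, pandas, numpy and matplotlib.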

Additional observations from a re-analysis of the deposited data

Results flagged for a closer look

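The test of a difference of the KO effect between ages passed for 2 of the 7 genes in the main fit. From P14 to P21 the KO effect grew by 1.58 on the log2 scale for *Runx1* and by 1.87 for *Sox11*, and from P21 to P35 by 2.39 for *Sox11*, each tested as an interaction in the edgeR fit of 32 libraries (adjusted *P*=0.00627, 0.00653 and 0.00187). Of all genes, 0.425% passed from P14 to P21 and 0.463% from P21 to P35. The P14 to P21 calls held in 6 of 16 fits without 1 library for *Runx1* and in 4 of 16 for *Sox11*. With only the libraries of P21 and P35 in the fit, the *Sox11* difference had an adjusted *P* of 0.0195 (edgeR).

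In 3 of the 56 groups of 4 libraries (7 genes in 8 groups), 1 library stood far from the other 3, measured as its gap to the nearest library divided by the range of the group. Chance flags about 1 in 20 groups. *Ncam1* in KO at P1 had a gap of 0.911, from replicate 4 at 65.5 CPM against 106 to 110.1 CPM in the others. *Gadd45a* in WT at P1 had a gap of 0.831, from replicate 2 at 11.9 CPM against 9.45 to 9.86 CPM. *Hdac4* in WT at P21 had a gap of 0.839, from replicate 2 at 28.5 CPM against 37.2 to 38.9 CPM. Without that library the *Hdac4* log2 fold change at P21 was 0.64, and it remained called.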

How the results depend on the processing

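Of 448 recomputed log2 fold changes of the 7 genes between genotypes, 417 kept their direction and their side of the threshold and 11 changed sign, all at P1 in values near 0. With single libraries left out, *Dach2* at P1 ranged from -0.10 to 0.27, *Runx1* from -0.0261 to 0.16 and *Sox11* from -0.0706 to 0.0451, and *Sox11* was 0.0296 with library totals and 0.0045 with the replicate block. At P14, DESeq2 called 1 of the 7 (*Runx1*, 1.22) and the replicate block 2 (*Runx1*, 1.22, and *Sox11*, 0.86). *Dach2* at P21 ranged from -3.16 to -2.50 and *Gadd45a* at P35 from 1.22 to 1.81 without single libraries, with 7 and 6 of 8 fits past an adjusted *P* of 0.01. At P35, library totals (0.86 and 0.83) and an adjusted *P* under 0.05 with no fold threshold (0.45 and 0.43) called *Hdac4* and *Hdac9*. The 13 calls that were lost all came from fits with 1 library fewer.

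Of the 61 pathway genes, DESeq2 called 1 at P1 (*Fbxo32*), 1 at P14 (*Gdf5*) and 18 at P21, in place of 0, 0 and 11. An adjusted *P* under 0.05 with no fold threshold called 1 at P1 and 28 at P21, the replicate block 4 at P14, and leaving out single libraries 4 to 12 at P21, with 4 without KO replicate 2 and 6 without KO replicate 4.

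For the difference of the KO effect from P14 to P21, in place of 2 of the 7, the replicate block and the libraries of the 2 ages alone called 1 each, an adjusted *P* under 0.05 called 4, library totals called 3, and leaving out single libraries called 0 to 2. From P21 to P35 the libraries of the 2 ages alone called 0 in place of 1. Among the age steps, library totals called 6 of the 7 in KO from P1 to P14 and 2 from P21 to P35, in place of 3 and 1. They also added a call of *Ncam1* in WT from P14 to P21. With only the libraries of the 2 groups, 1 was called in WT and 2 in KO from P14 to P21, in place of 2 and 1, and 0 in either genotype from P21 to P35, in place of 1. DESeq2 called 2 in KO from P14 to P21, and leaving out single libraries called 1 to 2. From P21 to P35 in WT, no filter and the replicate block called 0, and leaving out single libraries called 0 to 1, and 1 to 2 in KO. Except for these counts, the replicate block changed no count by over 1.5 times, and outside P14 it added or removed no call of the 7 between genotypes. The causes were not tested. At P1, P21 and P35 not every same-numbered pair correlated above 0.1, so the block served there only as an alternative fit. Whether the numbers mark a shared litter or day is not known.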
